A study of Rattus norvegicus with 2 samples.

Results

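The genes described here are the subunits and accessory proteins of the vacuolar proton pump together with the carbonic anhydrases, read across the epithelial cells of the rat proximal jejunum. They were chosen by symbol, as the genes named Atp6v0, Atp6v1, Atp6ap or Car followed by a number, plus Tcirg1, with at least 20 UMIs (unique molecules counted) over all barcodes of both libraries. Of 43 genes with such a symbol, 34 met that count, out of 32883 genes listed in the files. The set holds 11 genes of the V1 sector, 8 of the V0 sector, 3 accessory genes and 12 carbonic anhydrase genes. The members nearest the limit were Car11 with 23 UMIs and Atp6v1g3 with 32, and the nearest genes outside it were Atp6v1g2 with 14 and Atp6v0d2 with 11. Also under the limit were Atp6v0a4 with 8 UMIs, Atp6v1b1 and Atp6v1fnb with 2 each, Car5a with 1, and Car3, Car10 and Car15 with 0. The symbols do not all name what the set is called: Car8 and Car11 encode proteins related to carbonic anhydrases that lack the enzyme's activity, and Atp6ap1l is named only for its likeness to Atp6ap1.

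The study sequenced single jejunal epithelial cells from 2 adult male Sprague Dawley rats aged 6 to 8 weeks, with 1 library per rat and no treated group. The animals weighed 180 to 200 g per the sample labels and were fasted overnight, and the epithelium of the proximal jejunum was freed with EDTA and dispase before droplet capture with 3' chemistry. Rat 1 gave 12033 barcodes and 99986348 UMIs, and rat 2 gave 8252 barcodes and 66469907 UMIs. Cells with over 5000 UMIs, of which at most 40% were mitochondrial, numbered 6035 in rat 1 with a median of 12231 UMIs, and 2303 in rat 2 with a median of 13334. The libraries shared 28 barcodes, 4 of them among these cells. They were also counted with different Cell Ranger releases, so that the rat and the release cannot be told apart.

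After removal of non-epithelial clusters, 5763 epithelial cells of rat 1 and 1577 of rat 2 remained, and clusters of 5020 and 1503 of them could be named from fixed marker genes. Enterocyte-like cells made up 3483 cells in rat 1 and 1101 in rat 2. Stem-like cells, most of them in clusters led by genes of the cell cycle such as Top2a and Mcm6, numbered 1154 and 30 (217 and 10 of them in a cluster led by Olfm4 and defensins), and secretory progenitor-like cells 178 and 18. Goblet/Paneth-like cells numbered 127 and 35, and goblet-like cells 38 and 100. Paneth markers did not set these apart in both rats: their summed level was 18305 and 9428 in goblet/Paneth-like cells, and 25066 (Defa24 the highest at 19332) and 177 in goblet-like cells, in UMIs per 1000000. Enteroendocrine-like (EEC-like) cells numbered 22 and 11, tuft-like cells 11 and 130, and CHE-like cells, the rare cells that express Cftr highly, 7 and 78. Each of the 8 classes was thus present in both rats, but most tuft-like and CHE-like cells came from rat 2 and most stem-like and progenitor-like cells from rat 1. UMIs were summed per class and rat into 16 sums of between 67531 UMIs (CHE-like, rat 1) and 46723849 UMIs (enterocyte-like, rat 1), and a level is given as CPM, UMIs per 1000000 UMIs of its sum. In the smallest sum, 1 UMI stands for 14.8 CPM, and 0 UMIs allow up to 44.4 CPM (3 counts). Because 3' UMIs are counted per molecule, a level does not scale with transcript length. CPM are shares of a sum and carry no further scaling between classes, whereas the fitted log2 differences use edgeR's TMM scaling. Members were kept out of the genes used for clustering, so the classes were not drawn from their levels.

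The vacuolar proton pump is a rotary complex that moves protons across membranes at the expense of ATP: the V1 sector in the cytosol splits ATP, and the V0 sector in the membrane carries the protons. It acidifies lysosomes, endosomes, the Golgi and secretory granules in every cell, and in specialised acid-secreting cells such as the intercalated cells of the kidney it also works at the cell surface. Carbonic anhydrases interconvert CO2 and water with bicarbonate and protons, and so supply the ions that intestinal epithelium exchanges with its lumen and uses to neutralise acid.

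Of the 34 members, 33 had at least 1 UMI in the named classes, and the exception was Atp6v1g3. The filter on low counts left 20 members that could be tested, 16 of the pump and 4 carbonic anhydrases (Car2, Car4, Car8 and Car9). The other 14 were not tested. Levels differed among the classes for 16 of the 20 tested members by edgeR's quasi-likelihood test (Benjamini-Hochberg adjusted p under 0.05 over 8939 genes), beside 62.0% of all genes tested. Those not called were the pump subunits Atp6v0c, Atp6v1c1, Atp6v1g1 and Atp6v1h. When classes were drawn by gates on marker UMIs in place of clusters, 7 of 21 tested members were called among 7 classes, without stem-like cells, beside 2861 of 8085 genes (35.4%). The class with the highest level was the same in both rats for 13 of 34 members.

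**Figure D1:**
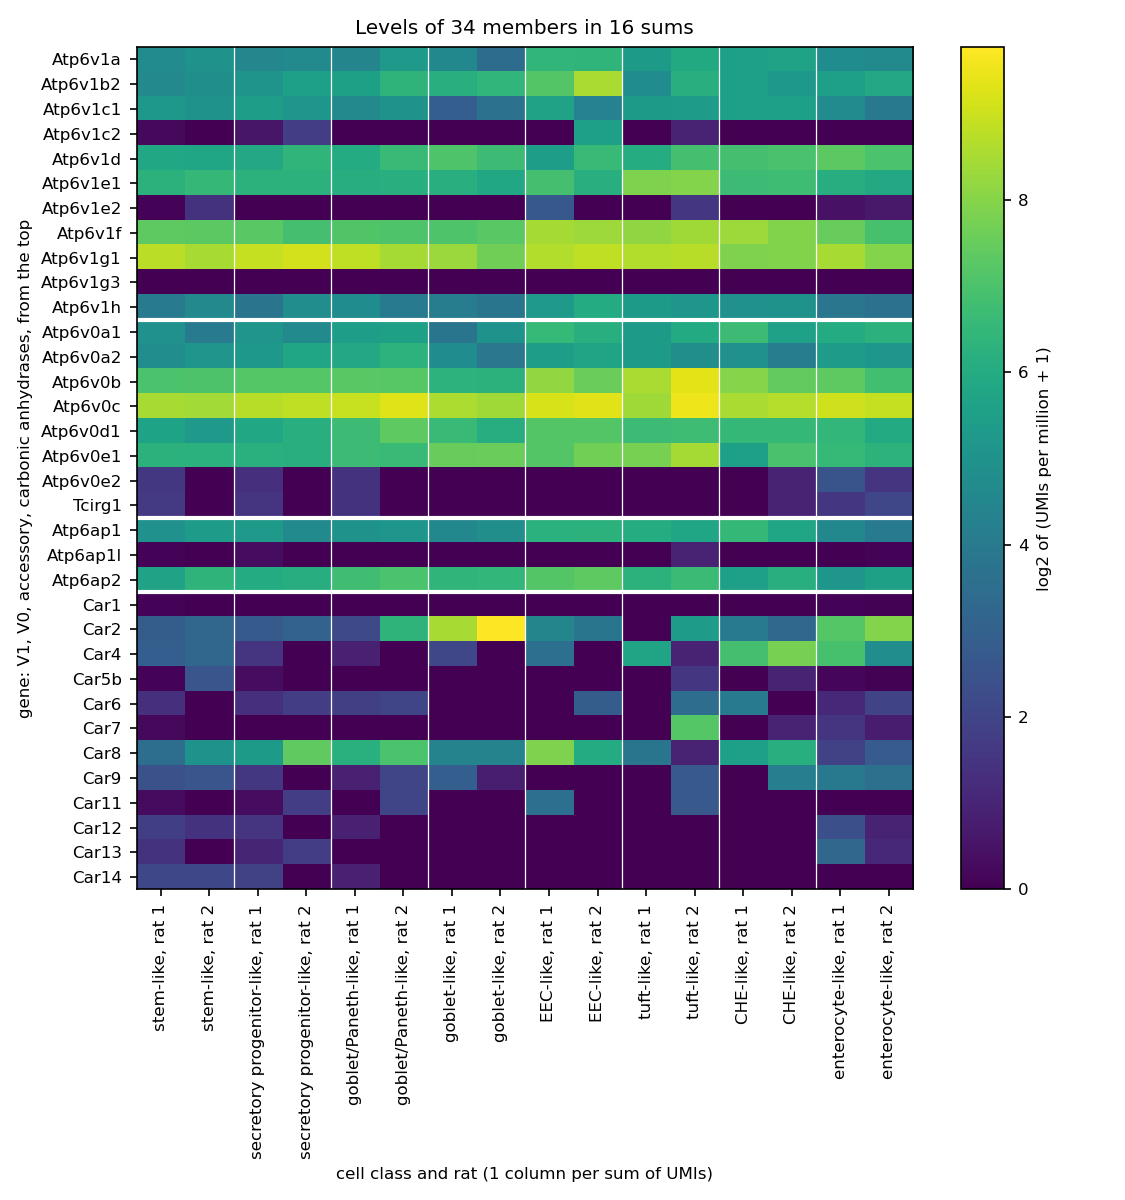
Heat map of the log2 of CPM plus 1 for the 34 members (rows, grouped into V1, V0, accessory and carbonic anhydrase genes) in the 16 sums of cell class and rat (columns). Most pump subunits were read in every column, whereas Car2, Car4 and Car8 were each high in a few columns and Car7 in tuft-like cells of rat 2 alone.

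The 8 tested V1 subunits were read in every class, and the enteroendocrine and tuft classes stood highest for several of them. Atp6v1b2, a subunit of the head that binds ATP, reached 140.3 CPM in EEC-like cells of rat 1 and 372 in rat 2, above all other classes in both rats, where it lay between 23.0 and 85.2. Its fitted difference between EEC-like cells and the mean of the other classes was 2.29 on the log2 scale (SE 0.34), higher in 2 of 2 rats (edgeR's quasi-likelihood test, Benjamini-Hochberg adjusted p = 0.00027). Atp6v1a, the catalytic subunit, was likewise highest in EEC-like cells, at 86.4 and 83.4 CPM, against 20.6 to 44.4 in the other classes of rat 1 and 9.89 to 60.5 in those of rat 2. Atp6v1e1, a peripheral stalk subunit, was highest in tuft-like cells at 232 CPM in rat 1 and 247 in rat 2. Atp6v1d, the central shaft, peaked instead in enterocyte-like cells, at 156 and 129 CPM, with goblet-like cells next in rat 1 at 133. Atp6v1g1, another stalk subunit and the V1 gene with the most UMIs (35420 in the named classes), varied little: its highest level was 2.05 times its lowest in rat 1 and 2.72 times in rat 2. The remaining tested V1 subunits, Atp6v1c1, Atp6v1f and Atp6v1h, ranged between 6.48 and 48.6, 118 and 351, and 11.4 and 64.1 CPM.

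In the V0 sector, the proteolipid ring and its companions were the most abundant. Atp6v0c, which forms most of the proton-carrying ring, held 49155 UMIs in the named classes and lay between 328 and 731 CPM in all 16 sums. Atp6v0b, a further ring subunit, was at 374 CPM in tuft-like cells of rat 1 and 658 in those of rat 2, against at most 291 in any other sum. Atp6v0e1, a small membrane subunit, was also highest in tuft-like cells, at 219 and 354 CPM, followed in rat 1 by goblet-like cells at 178 and in rat 2 by EEC-like cells at 205. Tuft-like cells therefore headed Atp6v0b, Atp6v0e1 and Atp6v1e1 in both rats, although those of rat 1 were only 11 cells and 29, 17 and 18 UMIs of these genes. Atp6v0d1, which couples the ring to the shaft, was lowest in stem-like cells, at 49.4 and 36.9 CPM, and lay between 56.0 and 163 elsewhere.

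The pump's alternative isoforms were nearly all read from 1 gene per family. Atp6v1b2 gave 4621 of the 4622 UMIs of the B subunit in the named classes, and the kidney-type gene Atp6v1b1 gave 1. Atp6v1g1 gave 35420 of 35427 G-subunit UMIs, with 7 from Atp6v1g2 and 0 from Atp6v1g3, which allows up to 0.00847%. Atp6v0d1 gave 7420 of 7429 d-subunit UMIs and Atp6v0d2, an isoform known from osteoclasts and kidney, the other 9. The C, E and e families held slightly more of a second isoform: Atp6v1c2 gave 0.543% of C-subunit UMIs (95% exact interval 0.297 to 0.909), Atp6v1e2 0.533% (0.377 to 0.731) and Atp6v0e2 3.35% (3.0 to 3.7). Atp6v1c2 stood out in EEC-like cells of rat 2, where it gave 7 of 10 C-subunit UMIs (70%, exact interval 34.8 to 93.3) and 44.9 CPM, while in rat 1 EEC-like cells gave 0 of its UMIs and 9 of Atp6v1c1. Atp6v0e2 was found mostly in enterocyte-like cells, at 4.82 CPM in rat 1 and 1.82 in rat 2.

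The a subunit, which sets where the pump is sent in the cell, was the family read from more than 1 gene throughout. Over all named classes, Atp6v0a1 gave 60.1% of the 9790 a-subunit UMIs (exact Clopper-Pearson interval 59.1 to 61.1), Atp6v0a2 37.6% (36.6 to 38.6), Tcirg1 2.27% (1.98 to 2.58) and Atp6v0a4 2 UMIs. In enterocyte-like cells the share of Atp6v0a1 was 59.6% in rat 1 and 66.9% in rat 2, and in CHE-like cells of rat 2 it was 73.5% (61.4 to 83.5). By level, Atp6v0a1 was highest in the 7 CHE-like cells of rat 1 but in enterocyte-like cells of rat 2. Goblet/Paneth-like cells leaned the other way, with Atp6v0a2 at 57.0% (47.7 to 66.0) in rat 1 and 63.0% (51.5 to 73.4) in rat 2. Atp6v0a2, the isoform of the Golgi and early endosomes, had its highest level in goblet/Paneth-like cells of both rats, 59.2 and 78.6 CPM. Tcirg1, the isoform of osteoclast and lysosomal pumps, was at or under 3.22 CPM in the 16 sums of named classes, and Atp6v0a4, the isoform of intercalated cells, gave 1 UMI in tuft-like and 1 in enterocyte-like cells.

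The accessory proteins followed the pump in part. Atp6ap2, the prorenin receptor that also serves pump assembly, was highest in EEC-like cells, at 140.3 and 160.3 CPM, and lowest in enterocyte-like cells, at 33.7 and 46.4. Atp6ap1, an assembly factor of the V0 sector, lay between 14.8 and 88.8 CPM over the 16 sums. Atp6ap1l gave 6 UMIs in the named classes.

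Summed over its 19 V1 and V0 members, the pump was highest in EEC-like cells of rat 1 (2515 CPM) and in tuft-like cells of rat 2 (3268), and these classes were the highest pair in both rats. EEC-like cells of rat 2 were at 2841 CPM and tuft-like cells of rat 1 at 2230. Stem-like cells were at 1505 and 1406 CPM, goblet-like cells at 1541 and 1334, CHE-like cells at 1836 and 1728, and enterocyte-like cells at 1864 and 1521. No class thus lacked the pump, and CHE-like cells lay inside the range of the other classes in both rats. The sum was described and was not tested.

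**Figure D2:**
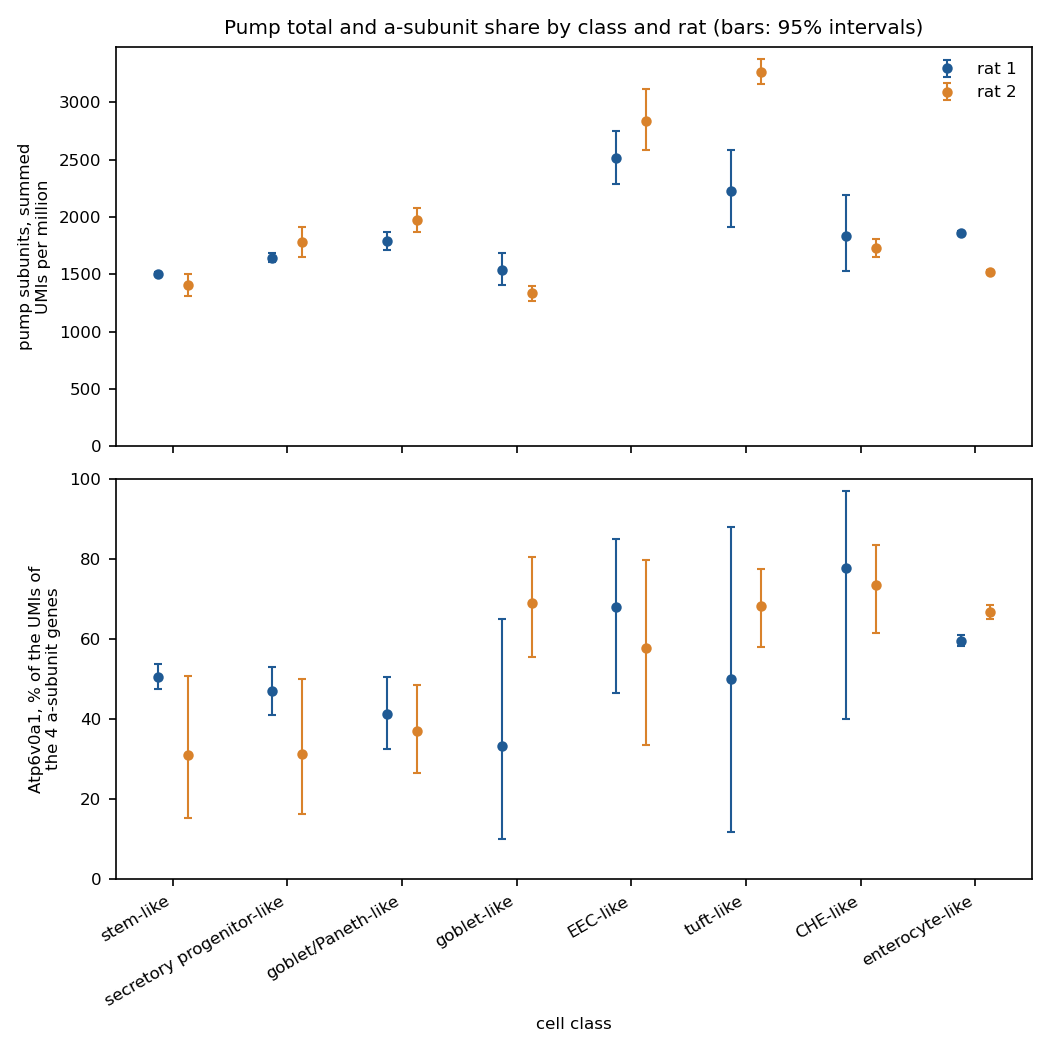
Upper panel: summed level of the 19 V1 and V0 members in CPM for each class and rat, with 95% counting intervals. Lower panel: Atp6v0a1 as a percent of the UMIs of the 4 a-subunit genes, with 95% exact binomial intervals; the shares lie at or under 50.6% in stem-like, progenitor-like and goblet/Paneth-like cells of both rats and at 59.6% and 66.9% in enterocyte-like cells.

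Each class was then set against the mean of the other classes, in 1 model of all 16 sums with adjustment over all 8939 genes. The question was which epithelial cell types differ in their acid-base machinery. Stem-like cells had 6 of 20 tested members called, all lower, beside 29.4% of all genes called (1793 higher and 832 lower); the members' median log2 difference was -0.83 and that of all genes 0.12. Those members were Car2, Atp6v1b2, Atp6v0d1, Atp6v0a1, Atp6v1d and Atp6v0e1, with log2 differences of -2.96, -1.85, -1.54, -1.46, -1.28 and -1.22, each lower in 2 of 2 rats. Atp6v0d1 had the smallest adjusted p of them (log2 difference -1.54, SE 0.35, lower in 2 of 2 rats; edgeR's quasi-likelihood test, Benjamini-Hochberg adjusted p = 0.0037). With a block for the rat, 12 members were called lower in stem-like cells, beside 38.8% of all genes. Immune transcripts were present in this class: 8 of 8 immune markers in rat 1 with a summed level of 278 CPM, and 7 of 8 in rat 2 (Cd52 at 0) with 799, Cd3g being the most abundant at 231 and 356. Most cells of this class were in clusters led by cell-cycle genes, and its cycling markers were at 1017 and 1012 CPM. CHE markers were at 90.8 and 1401 CPM in this class, with Guca2b the highest in rat 2 at 1319, and tuft markers at 9.52 and 122. The part of immune, cell-cycle, CHE and tuft transcripts in the difference was not tested. With the cells that carry few epithelial transcripts kept, which changed mainly this class, Car2 and Atp6v0e1 were no longer called (log2 differences of -0.80 and -0.41).

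Secretory progenitor-like cells had 3 of 20 tested members called, beside 23.6% of all genes: Car2 and Atp6v0e1 were lower and Car8 was higher. With the rat as a block there were 8, beside 31.4% of all genes, the 5 added being the pump subunits Atp6v0a1, Atp6v0d1, Atp6v1a, Atp6v1b2 and Atp6v1f, all lower. The members' median log2 difference was -0.78 and that of all genes 0.17. The share of members called without the block, 15%, was under that of all genes.

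EEC-like cells had 3 of 20 tested members called, all higher, beside 7.29% of all genes: Car8, Atp6v1b2 and Atp6v1a, with log2 differences of 2.83, 2.29 and 1.47. With the rat as a block there were 5, beside 10.3% of all genes, Atp6ap2 (1.00) and Atp6v1f (0.87) being the additions. These are cells that store peptide hormones in granules, whose lumen the pump acidifies. All of these differences had the same direction in 2 of 2 rats, on 22 cells in rat 1 and 11 in rat 2. All of these cells were first in a cluster with Ptprc in 63.8% of cells, and after that cluster was divided Ptprc was in 3.03% of them. Stromal markers were at 129.5 CPM in EEC-like cells of rat 1, from 2 of 4 markers with Col3a1 the highest at 86.4, and at 0 in rat 2. Immune markers were at 345 and 83.4 CPM (7 and 3 of 8 detected), and goblet markers at 6687 and 14592, with Tff3 the highest at 4059 and 12725. The part of these transcripts was not tested.

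Tuft-like cells had 3 of 20 tested members called, beside 10.3% of all genes: Atp6v0b (log2 difference 1.41) and Atp6v1e1 (1.17) were higher and Car8 (-4.69) was lower, each in 2 of 2 rats. Atp6v0b had the smallest adjusted p (log2 difference 1.41, SE 0.31; edgeR's quasi-likelihood test, Benjamini-Hochberg adjusted p = 0.0063). Atp6v0e1 was called as well with the rat as a block (log2 difference 1.02, higher in 2 of 2 rats; edgeR's quasi-likelihood test, Benjamini-Hochberg adjusted p = 0.028). Hemoglobin and heme-synthesis markers were at 13811 CPM in tuft-like cells of rat 2, from 4 of 5 markers (Hbb-b1 is not in the files) with Hba-a1 the highest at 7957, and at 64.4 in those of rat 1. Immune markers were at 541 and 608 CPM, and enterocyte markers at 17710 and 32846, with Fabp1 the highest at 16382 and 30482. The part of these transcripts was not tested.

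Goblet-like cells had 5 of 20 tested members called, all higher, beside 25.1% of all genes. Car2 led by far, and the pump members were Atp6v0e1 (log2 difference 1.51), Atp6v1b2 (1.32), Atp6v1d (1.24) and Atp6ap2 (0.96), each higher in 2 of 2 rats. These differences were fitted with TMM scaling between sums, which the CPM lack. In CPM the summed V1 level of goblet-like cells was 767 and 632, under that of every other class in both rats. Goblet markers made up 357490 and 388756 CPM of this class, and their part was not tested. Paneth markers in this class were at 25066 CPM in rat 1 and 177 in rat 2, and hemoglobin and heme-synthesis markers at 5018 and 1712, and their part was not tested. With a mitochondrial limit of 20% in place of 40%, none of these 4 pump members was called, at log2 differences of 1.02, 1.18, 0.82 and 0.59. In that setting all 38 goblet-like cells of rat 1 were named goblet/Paneth-like, and the 7 named goblet-like were unnamed before. Goblet/Paneth-like cells had 2 members called, beside 7.64% of all genes: Car8 (log2 difference 2.03) and Atp6v0a2 (1.10), both higher in 2 of 2 rats. With classes drawn by gates on marker UMIs, 0 of 21 tested members were called in this class, beside 6.36% of 8085 genes.

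Enterocyte-like cells had 7 of 20 tested members called, beside 31.6% of all genes, so that their share of 35% is near the background. The carbonic anhydrases Car4, Car2 and Car9 were higher and Car8 lower, and the pump subunits Atp6v1d (log2 difference 1.33), Atp6v0a1 (1.31) and Atp6v0a2 (0.75) were higher, each in 2 of 2 rats. Atp6v0a2 lost its call under 7 alternatives. With the rat as a block, Atp6v0c (log2 difference 0.76) and Atp6ap1 (-0.65) were called as well, which makes 9 of 20 members (45%), beside 41.7% of all genes.

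CHE-like cells, named for their high Cftr, had 2 of 20 tested members called, beside 10.1% of all genes, and both were carbonic anhydrases (Car4 and Car9). None of the 16 tested pump members was called by edgeR's quasi-likelihood test (Benjamini-Hochberg adjusted p), with or without the rat as a block, and without the block 5 of the 20 tested members had an unadjusted p under 0.05, beside 2196 of 8939 genes. The median log2 difference of the members was 0.40 and that of all genes -0.10. Hemoglobin and heme-synthesis markers were at 74.0 and 1944 CPM in this class, immune markers at 14.8 and 471 (Ccl5 the highest at 14.8 and 340.1) and enterocyte markers at 5701 and 4108, and their part was not tested. In rat 1 these cells were 7, so that the contrast rests largely on the 78 cells of rat 2.

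**Figure D3:**
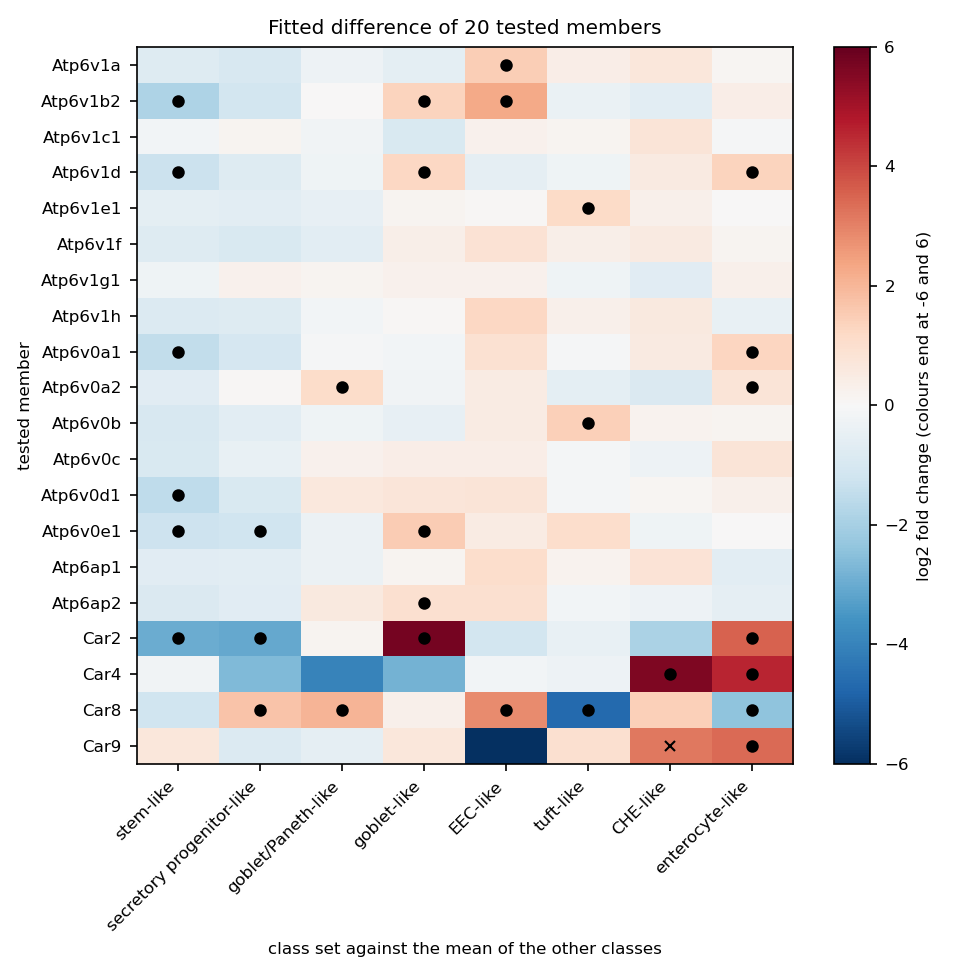
Fitted log2 difference of each of the 20 tested members (rows) between a class and the mean of the other classes (columns); dots mark members called at 5% with the same direction in both rats and the cross marks Car9 in CHE-like cells, called with opposite directions. Car2, Car4, Car8 and Car9 show the widest range; the darkest cell, Car9 in EEC-like cells, is a class without a UMI of the gene and was not called.

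Among the carbonic anhydrases, the cytosolic enzyme Car2 was the gene with the most UMIs, 14665 in the named classes. Its level in goblet-like cells was 359 CPM in rat 1 and 873 in rat 2, and in enterocyte-like cells 144 and 248. Every other sum held less: goblet/Paneth-like cells 3.43 and 80.1, tuft-like cells 0 (of 77583 UMIs, allowing up to 38.7 CPM) and 40.6, EEC-like cells 21.6 and 12.8, CHE-like cells 14.8 and 8.50, stem-like cells 6.42 and 8.39, and progenitor-like cells 5.80 and 7.37. Goblet-like and enterocyte-like cells were thus the top named classes in each rat, and the intervals of the former did not overlap those of any other named class. The 4 unnamed clusters held Car2 at between 10.1 and 245 CPM in rat 1 and between 43.0 and 389 in rat 2. The highest of them in both rats was led by hemoglobin genes and lay above enterocyte-like cells. Against the mean of the other classes, Car2 was higher in goblet-like cells by 5.73 on the log2 scale (SE 0.51, 2 of 2 rats; edgeR's quasi-likelihood test, Benjamini-Hochberg adjusted p = 7.8e-07) and in enterocyte-like cells by 3.56 (SE 0.53, 2 of 2 rats; same test and adjustment in edgeR, adjusted p = 6.9e-05). Goblet-like and enterocyte-like cells therefore shared this enzyme, while goblet/Paneth-like and progenitor-like cells, which carry goblet markers too, had far less of it. In rat 1 the contrast between goblet-like and goblet/Paneth-like cells depends on the naming. Under the 20% mitochondrial limit all 38 goblet-like cells of rat 1 were named goblet/Paneth-like.

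Cell by cell, after thinning each cell to 5000 UMIs, Car2 was found in 63.2% of 38 goblet-like cells of rat 1 (exact interval 46.0 to 78.2) and in 83.0% of 100 of rat 2 (74.2 to 89.8). For comparison it was found in 3.81% of 1154 stem-like cells of rat 1 and in 0 of 30 of rat 2, which allows up to 10% of cells with a UMI. Without thinning the goblet-like shares were 73.7% and 95%, at median depths of 7644 and 13181 UMIs, and the stem-like shares 8.75% and 13.3%, at 13268.5 and 20995.5. Car2 is also an enzyme of red blood cells, and hemoglobin and heme-synthesis markers were found in goblet-like cells at 5018 CPM in rat 1 and 1712 in rat 2 (4 of 5 markers, Hba-a1 the highest at 2771 and 953). Barcodes with over 10% hemoglobin UMIs, which were removed, held Car2 at 952 and 788 CPM. The part of red cell transcripts in the Car2 level was not tested.

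The other cytosolic enzymes were sparse except in single classes. Car7 had 154 of its 261 UMIs in tuft-like cells of rat 2, a level of 145.5 CPM (interval 123 to 170.4), and was at or under 1.82 in every other sum. In tuft-like cells of rat 1 it had 0 UMIs, which allows up to 38.7 CPM, so that the 2 rats differ there by more than counting error. The 11 tuft-like cells of rat 1 also differ from those of rat 2 in stem markers (374 against 70.9 CPM) and cycling markers (284 against 139) and had 0 UMIs of Trpm5, and the part of this was not tested. After thinning, 48.5% of 130 tuft-like cells of rat 2 held a Car7 UMI (39.6 to 57.4), against 0 of 11 in rat 1 (allowing up to 27.3%), 0.272% of enterocyte-like cells of rat 2 and 1.00% of those of rat 1. Car7 did not pass the filter and was not tested, and with rat 1 at 0 its presence in tuft cells rests on 1 animal. Car13 was read mainly in enterocyte-like cells, at 8.30 CPM in rat 1 but 1.16 in rat 2. Car1, the other erythrocyte isoform, gave 5 UMIs in the named classes. By RefSeq's gene order in the GRCr8 assembly, Car2, Car3, Car1 and Car13 are consecutive protein-coding genes on 1 chromosome, and within this cluster 14665 UMIs came from Car2, 0 from Car3, 5 from Car1 and 453 from Car13.

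The mitochondrial enzyme Car5b gave 13 UMIs in the named classes and its relative Car5a 1. Car6, the secreted enzyme of saliva, was read at no more than 14.8 CPM, the level of its single UMI in CHE-like cells of rat 1. Its next highest level was 10.4 CPM (11 UMIs) in tuft-like cells of rat 2, and enterocyte-like cells held 1.11 and 3.06. Neither gene was tested.

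Among the membrane enzymes, Car4, which is anchored to the outer face of the brush border by a lipid, was the one read most. CHE-like cells held it at 118 CPM in rat 1 (8 UMIs, interval 51.1 to 233) and 217 in rat 2 (230 UMIs, 190.1 to 247), and enterocyte-like cells at 121 and 26.9. All other sums lay at or under 10.8, apart from tuft-like cells of rat 1 with 51.6, which is 4 UMIs. CHE-like cells were thus highest in rat 2, and in rat 1 their interval spanned the level of enterocyte-like cells. Against the other classes, Car4 was higher in CHE-like cells by 5.59 on the log2 scale (SE 0.63, 2 of 2 rats; edgeR's quasi-likelihood test, Benjamini-Hochberg adjusted p = 1.4e-05). In enterocyte-like cells it was higher by 4.58 (SE 0.61, 2 of 2 rats; edgeR's quasi-likelihood test, Benjamini-Hochberg adjusted p = 2.1e-05). Several of the classes set against them held 0 UMIs of Car4 in rat 2, so the size of both differences depends on the small count added in the fit. Taken per rat, the difference in CHE-like cells was 3.23 in rat 1 and 7.56 in rat 2. After thinning, Car4 was found in 2 of 7 CHE-like cells of rat 1 and in 48.7% of 78 of rat 2 (37.2 to 60.3), against 0 of 127 and 0 of 35 goblet/Paneth-like cells, which allow up to 2.36% and 8.57%. The 4 unnamed clusters also held Car4, at between 38.8 and 69.8 CPM in rat 1 and between 0 and 120.3 in rat 2.

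Car9, a transmembrane enzyme with its active site outside the cell, was read in enterocyte-like cells at 14.7 CPM in rat 1 and 11.0 in rat 2. There it was higher than in the other classes by 3.39 on the log2 scale (SE 0.64, 2 of 2 rats; edgeR's quasi-likelihood test, Benjamini-Hochberg adjusted p = 0.00074). In CHE-like cells it was at 17.0 CPM in rat 2 (18 UMIs) and at 0 in rat 1, where 0 of 67531 UMIs allows up to 44.4. The call in CHE-like cells (log2 difference 3.18, SE 0.88; edgeR's quasi-likelihood test, Benjamini-Hochberg adjusted p = 0.031) was in the direction of 1 of 2 rats, with -2.54 in rat 1 and 3.17 in rat 2. Car12, of the same build, reached 4.28 CPM in enterocyte-like cells of rat 1 and 0.930 in rat 2, with stem-like cells at 2.48 and 1.68. Car14 had its highest level in stem-like cells of both rats, 3.38 and 3.36 CPM, and 0 UMIs in the enterocyte-like cells of both, which allows up to 0.0642 and 0.116. In stem-like cells of rat 2, 1 UMI stands for 1.68 CPM. The rank is not settled in either rat, as 0 UMIs allow up to 44.4 in CHE-like cells of rat 1 and 19.2 in EEC-like cells of rat 2. Neither Car12 nor Car14 could be tested among the classes.

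The carbonic anhydrase-related gene Car8, whose protein lacks catalytic activity and is known as a binding partner of a calcium channel, was highest in some of the secretory classes and low in others. It was at 237 and 64.1 CPM in EEC-like cells, 72.9 and 126 in goblet/Paneth-like cells, 39.1 and 165 in progenitor-like cells and 44.4 and 68.0 in CHE-like cells. Goblet-like cells held 19.4 and 19.8, stem-like cells 10.7 and 30.2, tuft-like cells 12.9 (1 UMI) and 0.945 (1 UMI), and enterocyte-like cells 2.85 and 6.01. Enterocyte-like cells, high in Car4, were thus among the lowest for Car8, while CHE-like cells held both. Car8 was called higher in EEC-like (log2 difference 2.83), goblet/Paneth-like (2.03) and progenitor-like cells (1.69), each in 2 of 2 rats. The call in goblet/Paneth-like cells was lost with gates on marker UMIs. Car8 was called lower in tuft-like (-4.69) and enterocyte-like cells (-2.40), each in 2 of 2 rats. The largest Car8 difference among the higher classes had SE 0.56 (EEC-like cells, log2 difference 2.83, 2 of 2 rats; edgeR's quasi-likelihood test, Benjamini-Hochberg adjusted p = 0.0037). After thinning, 63.6% of 22 EEC-like cells of rat 1 and 36.4% of 11 of rat 2 held a Car8 UMI, against 1.35% and 2.91% of enterocyte-like cells. Car11, another member without the enzyme's activity, gave 17 UMIs in the named classes, 6 of them in tuft-like cells of rat 2.

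**Figure D4:**
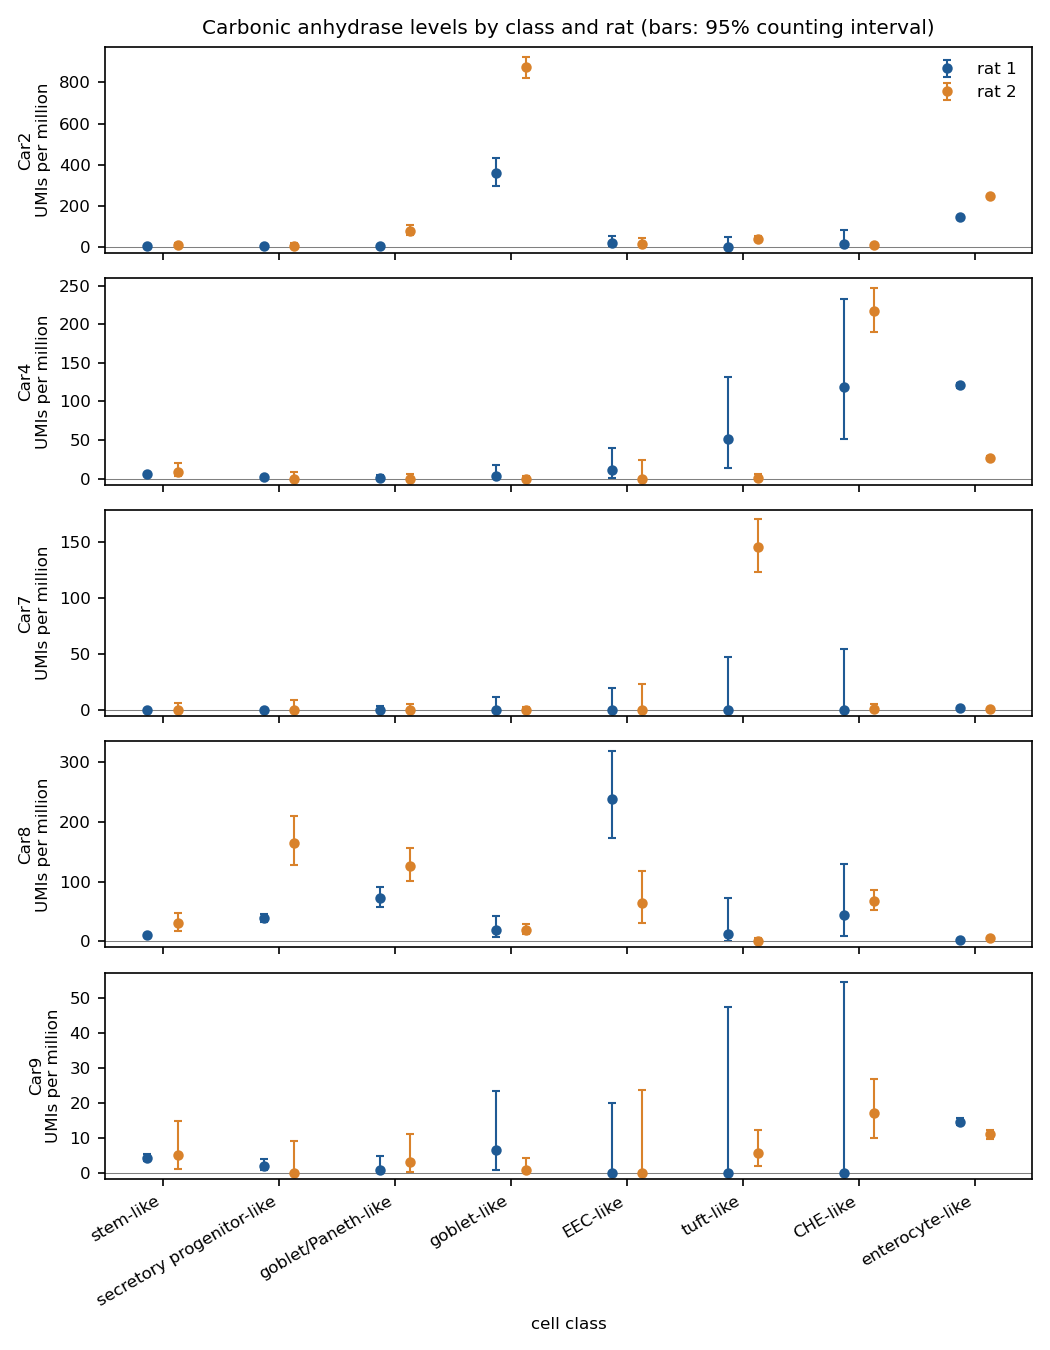
Levels of Car2, Car4, Car7, Car8 and Car9 in CPM for each class in rat 1 and rat 2, with 95% counting intervals; each panel has its own scale from 0. Car2 is highest in goblet-like cells (359 and 873), Car4 in CHE-like and enterocyte-like cells, Car7 in tuft-like cells of rat 2 alone (145.5), and Car8 in EEC-like cells of rat 1 (237) and progenitor-like cells of rat 2 (165).

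The make-up of carbonic anhydrase UMIs differed between groups of classes. Car2 made up 92.5% of them in goblet-like cells of rat 1 (exact interval 86.2 to 96.5) and 97.7% in rat 2 (96.7 to 98.5). Car8 made up 84.6% and 76.9% in EEC-like cells, 69.5% and 91.8% in progenitor-like cells and 88.5% and 58.6% in goblet/Paneth-like cells, with Car2 second in each. In CHE-like cells Car4 held 61.5% of 13 UMIs in rat 1 and 69.5% of 331 in rat 2, with Car8 second in both at 23.1% and 21.8%. Enterocyte-like cells of the 2 rats differed: Car2 and Car4 held 48.3% and 40.6% in rat 1, but 83.3% and 9.01% in rat 2. These cells also differed in mitochondrial UMIs, with medians of 14.5% and 25.1%. Over 20% were 585 of 3483 cells in rat 1 and 933 of 1101 in rat 2, and the part of this was not tested. The summed level of the 12 genes was 299 and 298 CPM over all enterocyte-like cells. Within the villus-score groups described next it differed between the rats: 298 and 199 in the low, 270 and 476 in the middle, 388 and 303 in the high group.

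Within enterocyte-like cells, a score of villus-tip genes (among them Ada, Nt5e and Apoa4) ordered the cells of each rat into low, middle and high groups of equal size, 1161 cells each in rat 1 and 367 in rat 2. The 9 genes of the score were left out of the sums of these groups, so that CPM here have smaller denominators than those of the class. The comparison of the high with the low group asks whether members differ with the cells' position along the villus as the score reads it. Car2 rose with the score in rat 1, from 27.1 to 133 and 336 CPM, and in rat 2 went from 115 to 439 and then 291. Car4 ran the other way, from 237 to 99.7 and 18.8 CPM in rat 1 and from 55.7 to 9.0 and 1.75 in rat 2. Car12 followed Car4 at low counts, from 7.96 to 0.853 in rat 1 and from 1.56 to 0.195 in rat 2. Car2 was thus higher in the high than in the low group of both rats, although in rat 2 its middle group was highest. The surface enzymes Car4 and Car12 were higher in the low group of both rats. Other cytosolic enzymes rose only in rat 1, from 5.99 to 9.93 CPM for Car13 and from 0.599 to 2.87 for Car7. In rat 2 they went from 1.65 to 0.195 and from 0.732 to 0.389. Car9 differed between the animals: it was at 12.9 and 17.4 CPM in the low and high groups of rat 1, and at 13.9 and 2.92 in those of rat 2.

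By edgeR's quasi-likelihood test (Benjamini-Hochberg adjusted p) none of the 26 tested members was called between the high and the low group, beside 0% of 9686 genes, although 2347 genes and 2 members (Car2 and Atp6v1a) had an unadjusted p under 0.05. With the rat as a block, edgeR called 3 of 26 members, beside 30.6% of all genes: Car2 (log2 difference 3.09), Car4 (-3.77) and Car12 (-2.75), each in 2 of 2 rats. DESeq2 called 2 of 26, Car2 (2.65) and Car4 (-3.42), beside 13.1% of all genes. Without the low-count filter the same 3 genes as with the block were called, among 1595 genes, and with 4 groups of cells in place of 3, the highest against the lowest, 0 members and 147 genes. Car4 had the smallest adjusted p with the block (log2 difference -3.77, SE 0.43, lower in 2 of 2 rats; edgeR's quasi-likelihood test, Benjamini-Hochberg adjusted p = 0.0076).

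The summed level of the pump subunits was 1971 CPM in the low group and 1930.5 in the high group of rat 1, but 1832 and 1069 in those of rat 2. Atp6v0c showed the same split between the rats, with 557 and 561 CPM in rat 1 and 576 and 333 in rat 2. Atp6v1a, the catalytic subunit, was lower in the high group of both rats, at 34.1 and 18.1 CPM in rat 1 and 36.9 and 8.96 in rat 2, and was not called. In rat 2 the high group also had fewer UMIs per cell than the low group (medians of 14564 and 29915) and more mitochondrial UMIs (28.8% and 23.3%), whereas in rat 1 the medians were 11224 and 12452 and the mitochondrial shares 13% and 14.7%; their part in the difference was not tested. Of the cells, 17.0% in rat 1 and 11.2% in rat 2 lay within 0.1 SD of a boundary between groups.

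**Figure D5:**
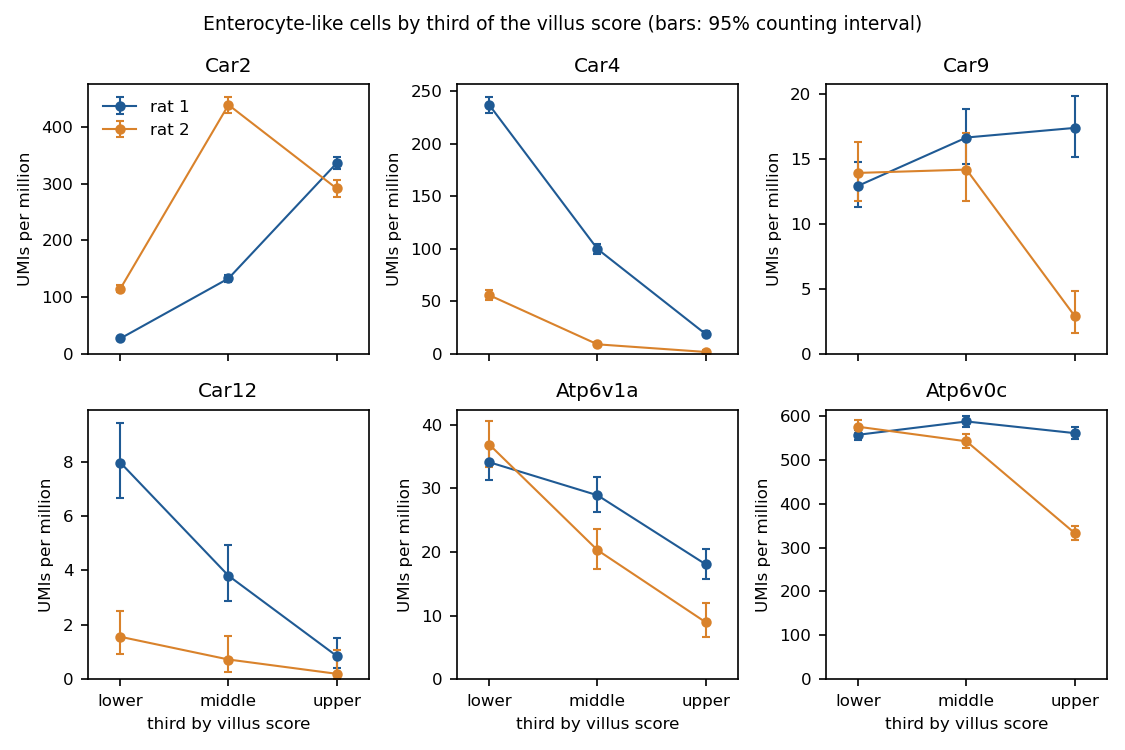
Levels of 6 members in CPM in the low, middle and high groups of enterocyte-like cells by villus score, for rat 1 and rat 2, with 95% counting intervals and axes from 0. Car4 and Car12 are lower and Car2 is higher in the high than in the low group of both rats, while Car9 and Atp6v0c separate the 2 animals.

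Genes that act with these members were read from fixed lists. Of 12 genes of pump assembly and regulation, 10 were tested and 7 differed among the classes, where 62.0% of all genes did. Tldc2, of the TLDc family that binds V1, was at 14.0 and 15.8 CPM in enterocyte-like cells and called higher there (log2 difference 3.41). However, tuft-like cells of rat 2 held 19.8, and CHE-like cells held 14.8 (1 UMI) and 13.2. Dmxl2, a part of the complex that rejoins V1 to V0, was at 38.7 (3 UMIs) and 18.0 in tuft-like cells and called higher (log2 difference 4.71), against 10.0 and 10.9 in enterocyte-like cells; the fitted size depends on the small count added because both goblet classes held 0 in both rats. Rogdi, of the same complex, had 0 UMIs (allowing up to 44.4 CPM) and 1 UMI in CHE-like cells, where it was called lower. It was as scarce in goblet-like cells, with 1 UMI and 0 UMIs, and enterocyte-like cells held 4.79 and 3.68 CPM. Tmem9 had none in goblet-like cells of either rat, where it was called lower, against 32.2 and 43.6 CPM in stem-like cells.

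Of 6 vesicular chloride-proton exchangers and their partner protein, 2 were tested and both were called among the classes, where 62.0% of all genes were. Clcn3, an exchanger of endosomes that works beside the pump, was at 41.6 and 49.7 CPM in enterocyte-like cells (log2 difference 1.60) and Ostm1, the partner of the lysosomal exchanger, at 6.70 and 6.71 in stem-like cells (-1.43). Clcn4 had 0 UMIs in the named classes.

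Among 17 other acid-base transporters, 11 were tested and 9 differed among the classes (62.0% of all genes), with 7 of the 11 higher in enterocyte-like cells and none lower (2042 of 8939 genes higher and 783 lower). Slc9a3, the brush-border sodium-proton exchanger, was at 70.8 and 152 CPM there (log2 difference 5.29), its cofactor Chp2 at 179 and 254 (5.04), and Slc26a3, a chloride-bicarbonate exchanger, at 162 and 86.5 (4.83). Otop3, a proton channel, was read in EEC-like cells at 16.2 (3 UMIs) and 64.1 CPM (10 UMIs) and in CHE-like cells of rat 2 at 23.6, and was called higher in EEC-like cells, where the fitted size depends on the small count added because most other classes held 0. In CHE-like cells 3 of the 11 were higher and none lower (726 of 8939 genes higher and 175 lower). The gastric proton pump genes Atp4a and Atp4b had 0 UMIs in the named classes and its colonic relative Atp12a 1. Slc9a3, Chp2 and Slc26a3 were thus called higher in the class where Car4 and Car2 were called higher. Whether these proteins work together in the same cells was not tested.

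Of 8 genes of ionocytes and intercalated cells, 7 were in the files and 1 was tested: Rhbg, an ammonium transporter, at 21.4 and 35.4 CPM in goblet/Paneth-like cells (log2 difference 3.54). It was also called higher in stem-like (2.51), progenitor-like (2.55) and enterocyte-like cells (3.17), with 0 UMIs in EEC-like and tuft-like cells of both rats, so that the size of these differences depends on the small count added in the fit. Foxi1, the factor that defines these cells, had 0 UMIs in the named classes, as did Bsnd and Rhcg, and Slc26a4 had 10. The kidney-type pump genes Atp6v1b1 and Atp6v0a4, at 1 and 2 UMIs, were thus scarce at this depth. So were Foxi1, Bsnd and Rhcg at 0 and Slc26a4 at 10, whereas Rhbg was not.

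Lysosomal proteins, which work in the compartment that the pump acidifies, were tested for 23 of 25 genes and 16 differed among the classes, near the 62.0% of all genes. Of the 23, 6 were called in stem-like cells (4 lower, 2 higher) and 9 in enterocyte-like cells (8 higher, 1 lower), where 29.4% and 31.6% of all genes were. In goblet-like cells 7 were higher and 2 lower, beside 25.1% of all genes called, and in CHE-like cells 6 were higher and 1 lower, beside 10.1%. Lipa, the lysosomal lipase, was at 55.3 and 183 CPM in enterocyte-like cells (log2 difference 3.31), and Ctsl, a cathepsin, at 297 and 455 in EEC-like cells (3.40). Ctsz, another cathepsin, was at 3.24 and 1.52 in goblet-like cells and called lower there (-3.77).

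Promoters were read for all members with a window in the reference. RefSeq (GRCr8) gives a promoter window of 300 bases, from 250 before the start site to 50 after it, for 25 of the 34 members, 18 of them of the pump, and for 4 of the 6 members called lower in stem-like cells. The palindromic E-box CACGTG, searched on both strands, was in 6.65% of all 27457 windows, in 2 of the 18 pump members and in 0 of 7 carbonic anhydrases. The longer TCACGTGA, which contains it and is the core of the element that the lysosomal regulators TFEB and TFE3 bind, was in 0.867% of all windows and in the same 2 pump members. Those were Atp6v0d1 and Atp6v0e1, both V0 subunits and both called lower in stem-like cells, the second not under 4 alternatives (log2 difference -0.41 when cells with few epithelial transcripts were kept). Their windows follow with the motif in capitals. In the first the inner CACGTG of the capitals begins 52 bases upstream of the start site (chr19:50357199-50357498, minus strand). In the second it begins at position 25 from the start site (chr10:17007107-17007406, minus strand). A match describes the letters only.
Atp6v0d1: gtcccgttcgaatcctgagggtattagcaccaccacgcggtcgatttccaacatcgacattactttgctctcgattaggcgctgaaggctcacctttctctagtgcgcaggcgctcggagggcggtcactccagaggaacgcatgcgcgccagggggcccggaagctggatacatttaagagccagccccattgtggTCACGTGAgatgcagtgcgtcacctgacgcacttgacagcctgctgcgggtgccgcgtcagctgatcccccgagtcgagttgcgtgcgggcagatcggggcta
Atp6v0e1: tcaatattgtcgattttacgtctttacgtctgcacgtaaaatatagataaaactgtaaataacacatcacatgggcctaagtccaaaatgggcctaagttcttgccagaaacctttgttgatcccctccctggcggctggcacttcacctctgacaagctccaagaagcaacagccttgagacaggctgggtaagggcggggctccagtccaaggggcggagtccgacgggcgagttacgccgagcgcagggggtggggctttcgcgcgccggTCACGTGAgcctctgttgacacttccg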

How the data were processed

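The authors deposited, for each rat, raw counts of UMIs per gene and barcode from 10x 3' libraries, made with Cell Ranger 3.1.0 (rat 1) and 5.0.1 (rat 2) per the file headers on build rn6 per the labels. Cells with over 5000 UMIs, over 200 and under 5800 genes and at most 40% mitochondrial UMIs were kept, integrated and clustered in Seurat 5.3.0 under R 4.3.3 (2000 variable genes without members, 20 components, resolutions 0.3 and 0.5). Clusters with Ptprc in over 25% of cells or rich in hemoglobin (901 cells) were clustered again and removed apart from 2 clusters under both limits (90 and 33 cells, the second being all EEC-like cells). Also removed were cells with 10 or fewer UMIs of Epcam, Krt8, Krt18, Krt19 and Krt20 (1 in rat 1, 99 in rat 2). Clusters were named from fixed markers, with level thresholds set after the clusters were seen; 4 clusters (12.9% and 4.69% of cells) stayed unnamed. Scrublet in scanpy 1.11.5 marked 116 of 5988 and 5 of 2230 cells, which were kept. UMIs were summed per class and rat and tested in edgeR 4.0.16 (TMM, filterByExpr, glmQLFit, Benjamini-Hochberg at 5%), with DESeq2 1.42.0 as an alternative; the steps were tested on simulated data. The 16 sums come from 2 animals, which pairs them: over 28 pairs of classes, deviations in the same rat correlated at a median of 0.17 (0.08 to 0.42). Single-cell shares used cells thinned to 5000 UMIs. Intervals are exact at 95%, cover counting error only, and floors are 3 counts. Alternatives changed the gene and mitochondrial limits, integration, resolution, class gates, doublets, epithelial filter, test, low-count filter, mitochondrial genes, the block, the villus score and groups, and the rats left out in turn.

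Members and lists were chosen with earlier results of these data known. Named were all members of isoform families, all carbonic anhydrases, up to 12 called members per contrast with the same direction in both rats, and up to 4 called genes per list with the largest differences; other pump members, and Car9 in CHE-like cells, were named after their values were seen.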

Additional observations from a re-analysis of the deposited data

Results flagged for a closer look

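Signals of 4 members lay mainly in barcodes outside the retained epithelial cells, above the 3 counts that a count of 0 allows, and so outside every comparison of the report. Car5b had 462 of 479 UMIs there (96.5%), 377 of them in barcodes that did not pass the cell limits, and rat 2 gave 442 of the 479. Atp6v1g3 had all 32 of its UMIs there, 20 in barcodes not retained and 11 in cells with few epithelial transcripts, all from rat 2. Atp6ap1l had 51 of 57 UMIs there (89.5%) and Car1 36 of 42 (85.7%), of which 27 and 20 lay in removed cells with over 10% hemoglobin UMIs. Which cells gave these UMIs was not tested.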

How the results depend on the processing

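Of the log2 differences of named members, 404 kept their direction and their side of the threshold under an alternative, 43 fell short of it, 8 passed it newly, 1 without a call changed direction (Car7 along the villus score, -0.30 without rat 1) and 1 reversed: Car9 in CHE-like cells, at 3.17 without rat 1 and -2.54 without rat 2, where rat 1 had 7 cells and no UMI of it. Gates on markers, which left 7 classes, gave 2861 of 8085 genes (5545 of 8939 in the report) and 7 of 21 members (16 of 20) among the classes. In enterocyte-like cells they gave 4 members (7), beside 20.7% of genes (31.6%). Over the 5 classes left beside enterocyte-like and CHE-like they gave 7 member calls, beside 4.11% to 11.5% of genes per class. The report had 22 over 6 such classes, beside 7.29% to 29.4% of genes. Of those, 6 were in stem-like cells, which the gates lack. The cause was not tested. With the rat as a block, which uses the pairing of sums from 1 animal, CHE-like cells had 1400 genes (901). The 6 classes other than CHE-like and enterocyte-like had 36 member calls (22), beside 10.3% to 38.8% of genes per class (7.29% to 29.4%). The high against the low villus group gave 2963 genes and 3 members (0 and 0). Calls were gained and, of the members named, none was lost. That villus comparison gave 1270 genes and 2 members with DESeq2, 1595 and 3 without the low-count filter, and 147 genes with 4 groups of cells in place of 3. CHE-like cells had 1 member (2) with DESeq2 or with cells of few epithelial transcripts kept. The share of all genes called in those fits is not given here, so this count cannot tell the members from calling in general. Without either rat each class was 1 sum with no replicate, so calls in those fits cannot show stability and only their log2 differences are given. The tally of log2 differences above includes those fits. Enterocyte-like cells had 11 of 33 members (7 of 20) without the filter, beside 20.6% of 17193 genes (31.6%). The isoform share of Atp6v0a1 was 57.3% under a 20% mitochondrial limit and 61.7% with gates (60.1%); those of other isoforms stayed within their intervals 43 times and left them 5 times, with Atp6v0a2 at 40.7% and 36.2% (37.6%) and Tcirg1 at 1.91% (2.27%) under that limit, and Atp6v0d1 at 100% and Atp6v0d2 at 0% with gates. Counted over retained epithelial cells, 28 members (34) reach 20 UMIs. Depth limits the small sums of rat 1 tuft-like and CHE-like cells, where 0 UMIs allow 38.7 and 44.4 CPM.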
